A study of Mus musculus with 24 samples.

Results

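The 10 brain endothelial genes Tek, Tie1, Pecam1, Cdh5, Cldn5, Flt1, Kdr, Sox17, Emcn and Abcb1a were followed across genotypes in the cortex of mice with amyloid pathology. They were taken by gene symbol from a table of read counts for 24421 genes, and all 10 were among the 16316 genes with enough counts to be tested. The libraries came from 24 mice, 6 per genotype and 1 library per mouse, all 7.5 months old. Every mouse carried 5xFAD, human transgenes under the neuronal Thy1 promoter that encode mutant amyloid precursor protein and presenilin and lead to amyloid plaques. WT mice had both Trem2 and Plcg2 intact, Trem2KO mice lacked Trem2, Plcg2KO mice lacked Plcg2, and the last group was labelled Plcg2HET, for a heterozygous Plcg2 knockout. Males and females numbered 3 and 3 in each genotype except Plcg2KO, with 4 and 2. No library from a mouse without 5xFAD was analysed here, and the labels name no cell type to which a knockout was restricted. A mouse is named by its genotype, its sex letter and its number, as in WT M1.

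Endothelial cells line the blood vessels. In the brain they form the blood-brain barrier, sealed by tight junctions and equipped with pumps that return drugs and other compounds to the blood. Their growth and stability are governed by receptor tyrosine kinases at the cell surface, among them the receptors for vascular endothelial growth factor (VEGF) and the angiopoietin receptor TIE2, the product of Tek. Trem2 and Plcg2 are expressed in the brain mainly by microglia, the resident immune cells, and endothelial transcripts make up a small share of RNA from whole cortex.

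The promoters of Tek, Tie1, Cldn5 and Kdr are shown because these genes had the largest differences between Plcg2KO and WT. They come from RefSeq on GRCm38.p6, the build that mm10 names, which held promoters for 7 of the 10 genes (Tek, Tie1, Cldn5, Flt1, Kdr, Emcn and Abcb1a). Each runs from 250 bases before to 50 bases after the annotated start, 5′ to 3′ on the strand of the gene, at chr4:94739039-94739338 on the plus strand for Tek, chr4:118489800-118490099 on the minus strand for Tie1, chr16:18776597-18776896 on the plus strand for Cldn5 and chr5:75978406-75978705 on the minus strand for Kdr. Capitals mark CCGGAA or CAGGAA, core motifs of ETS transcription factors, on either strand.
Tek: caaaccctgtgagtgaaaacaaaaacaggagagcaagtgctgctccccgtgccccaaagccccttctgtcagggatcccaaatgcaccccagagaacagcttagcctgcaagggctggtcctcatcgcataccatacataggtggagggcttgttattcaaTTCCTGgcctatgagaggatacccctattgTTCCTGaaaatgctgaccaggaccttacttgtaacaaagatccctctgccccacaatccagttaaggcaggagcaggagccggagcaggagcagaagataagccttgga
Tie1: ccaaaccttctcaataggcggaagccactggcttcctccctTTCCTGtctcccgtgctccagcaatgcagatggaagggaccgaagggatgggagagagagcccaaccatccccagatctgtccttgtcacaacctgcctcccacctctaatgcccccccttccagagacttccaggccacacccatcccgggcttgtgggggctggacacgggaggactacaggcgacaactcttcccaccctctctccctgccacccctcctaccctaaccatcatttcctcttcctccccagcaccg
Cldn5: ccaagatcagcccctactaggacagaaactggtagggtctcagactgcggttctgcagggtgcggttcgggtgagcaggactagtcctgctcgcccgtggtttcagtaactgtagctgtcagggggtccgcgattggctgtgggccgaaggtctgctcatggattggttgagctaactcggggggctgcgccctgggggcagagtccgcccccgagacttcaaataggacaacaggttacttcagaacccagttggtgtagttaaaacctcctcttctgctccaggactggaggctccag
Kdr: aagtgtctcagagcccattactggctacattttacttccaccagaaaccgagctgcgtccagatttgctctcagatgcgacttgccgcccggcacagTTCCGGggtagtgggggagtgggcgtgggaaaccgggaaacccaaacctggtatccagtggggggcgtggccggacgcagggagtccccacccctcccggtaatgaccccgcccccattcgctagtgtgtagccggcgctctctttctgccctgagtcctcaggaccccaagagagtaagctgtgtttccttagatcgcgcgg
The Kdr window held 1 CCGGAA, a motif found in 14.9% of 32851 promoters of the same length. Tek held 2 copies of CAGGAA, Tie1 held 1 and Emcn held 2, and 30.6% of promoters held at least 1. The Cldn5 window held neither. AACAAT, a SOX motif, was in the windows of Tek and Emcn and in 10.7% of promoters, and AGATAA, bound by GATA factors, was in that of Tek and in 11.2%. TATAAA was in the window of Flt1 and in 13.6% of promoters. Each motif was searched on both strands, and a match shows only that the letters are present.

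Total counts were 36.3 to 83.0 M per library (M, 1e6 counts). Plcg2 stood at 11.8 ± 3.14 CPM (counts per 1e6, scaled by the TMM method; mean ± SD, n = 6) in WT and 0.984 ± 0.159 in Plcg2KO, and Trem2 stood at 82.5 ± 34.9 CPM in WT and 6.01 ± 1.21 in Trem2KO. Trem2 was low in Plcg2KO as well, at 19.1 ± 5.39 CPM, with libraries at 14.1 to 28.6 against 46.5 to 119 in WT. The Plcg2KO group thus had little RNA of Plcg2 and less of Trem2 than WT. In the libraries labelled Plcg2HET, Plcg2 stood at 12.0 ± 4.98 CPM, no lower than in WT (log2 fold change 0.02, edgeR adjusted p = 0.951). The counts thus give no sign of the labelled heterozygosity, and directions in this group rest on the label alone. Rn45s, a ribosomal RNA precursor, took over 5% of counts in 3 libraries: 9.59% in WT F1, 5.29% in Plcg2HET F1 and 29.0% in Plcg2HET F3. Libraries also differed in how their deviations followed the GC content of genes. This GC trend, a Spearman coefficient across genes, was -0.566 to -0.285 in Plcg2KO, -0.0764 to 0.52 in Trem2KO and -0.511 to 0.258 in WT, and in the group labelled Plcg2HET it was -0.451 in M3 and -0.371 in F2 against 0.279 to 0.556 in the other 4.

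All 10 genes were detected in every library, with 96 counts at the least, for Sox17, and 3339 at the most, for Flt1. Per kilobase of exon, Cldn5 was the most abundant in WT at 16.7 ± 2.01 CPM per kb (mean ± SD, n = 6), followed by Pecam1 at 5.05 ± 1.42, Flt1 at 4.85 ± 1.54, Abcb1a at 3.30 ± 1.21 and Emcn at 2.95 ± 0.412. Cdh5 at 2.31 ± 0.981, Tek at 1.96 ± 0.597, Tie1 at 1.77 ± 0.394, Kdr at 1.56 ± 0.528 and Sox17 at 0.826 ± 0.148 CPM per kb were the lower members. In this order the mean of a gene exceeded that of the next by more than either SD for Cldn5 over Pecam1, Flt1 over Abcb1a and Kdr over Sox17, and by less for the other neighbours. The exons of none of the 10 overlapped those of another gene in the count table. Values other than these levels are given as CPM without length, and are compared only between libraries.

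In the cortex of Plcg2KO mice 7 of the 10 genes were lower than in WT: Tek, Tie1, Pecam1, Cldn5, Flt1, Kdr and Emcn, at 55.4% to 73.1% of the WT mean. The percentage of all tested genes called lower in this comparison was 7.63. All 10 log2 fold changes were negative, with a median of -0.64, where the median of all genes was -0.00347. Calls rest on an adjusted p under 0.05 in edgeR's quasi-likelihood test, with Benjamini-Hochberg adjustment over all 16316 genes, and every fold change comes from that fit. In whole cortex, fewer endothelial cells and less of an RNA per cell cannot be told apart. Over the 4 genotypes tested together, the same 7 genes passed, where 45.7% of all genes did, and Cdh5, Sox17 and Abcb1a had adjusted p-values of 0.226, 0.135 and 0.143.

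**Figure D1:**
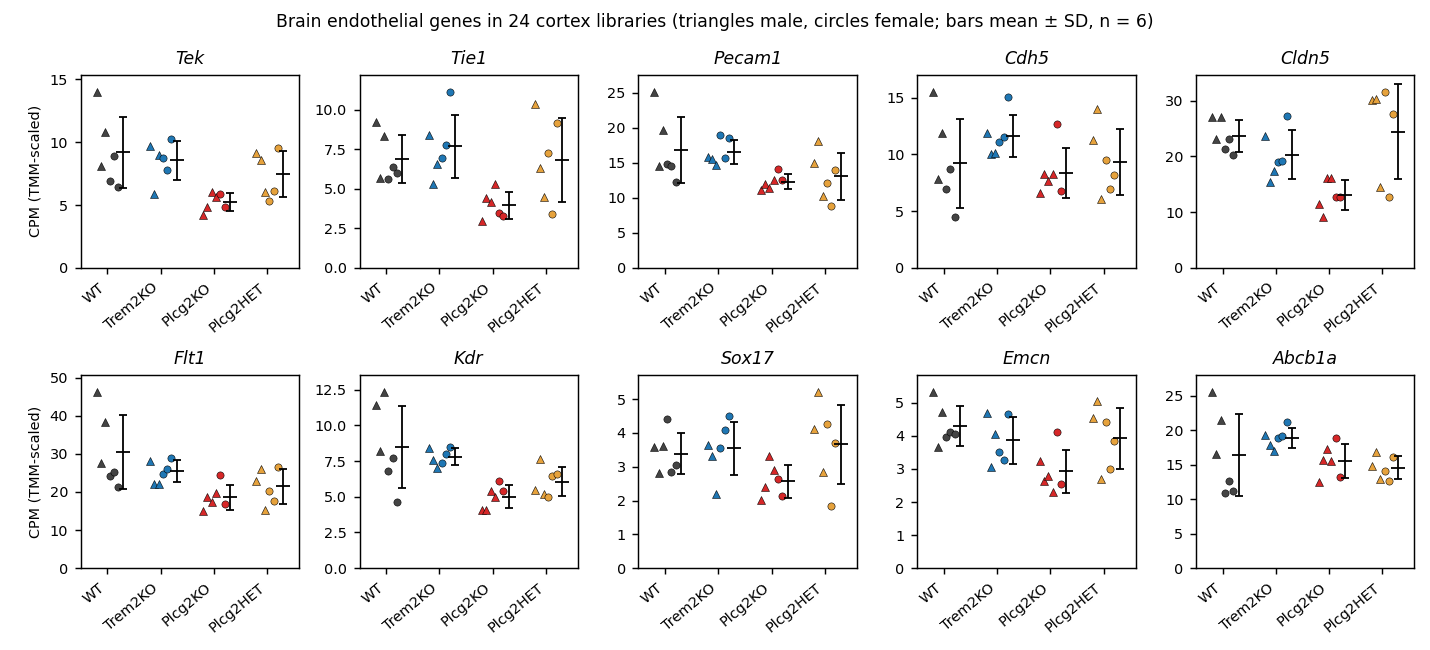
TMM-scaled CPM of the 10 genes (y axis, from 0) in each of the 24 libraries, by genotype as labelled (x axis), with triangles for males, circles for females and bars for mean ± SD (n = 6). The Plcg2KO libraries lay at 2.98 to 5.32 CPM for Tie1, below the lowest WT library at 5.64, while for Abcb1a they lay at 12.5 to 18.9 CPM within the WT range of 10.9 to 25.5.

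Tek and Tie1 encode the angiopoietin receptor TIE2 and its partner TIE1. Tek had a lowest, median and highest CPM of 6.46, 8.50 and 14.0 in WT, 5.91, 8.86 and 10.3 in Trem2KO, 4.22, 5.27 and 6.02 in Plcg2KO and 5.31, 7.34 and 9.55 in the libraries labelled Plcg2HET. Every Plcg2KO library was thus below every WT library, and 5 of 6 were below every Trem2KO library. The log2 fold change of Tek in Plcg2KO was -0.82 ± 0.17 (SE) against WT (adjusted p = 0.00181), -0.74 ± 0.17 against Trem2KO (adjusted p = 0.0111) and -0.52 ± 0.17 against the Plcg2HET group (adjusted p = 0.0234).

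Tie1 had a lowest, median and highest CPM of 5.64, 6.20 and 9.21 in WT, 5.32, 7.37 and 11.1 in Trem2KO, 2.98, 3.83 and 5.32 in Plcg2KO and 3.41, 6.78 and 10.3 in the libraries labelled Plcg2HET. The Plcg2KO libraries overlapped neither WT nor Trem2KO. For Tie1 the log2 fold change in Plcg2KO was -0.82 ± 0.22 (SE) against WT (adjusted p = 0.0132), -0.99 ± 0.22 against Trem2KO (adjusted p = 0.00908) and -0.80 ± 0.22 against the Plcg2HET group (adjusted p = 0.00739). In that group Tie1 ranged from 3.41 CPM in F2 to 10.3 in M1, the widest spread of its 4 genotypes.

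Kdr and Flt1 encode VEGF receptors, KDR (VEGFR2) being the main signalling receptor and FLT1 (VEGFR1) a high-affinity receptor that also acts as a decoy. Kdr had a lowest, median and highest CPM of 4.62, 7.96 and 12.3 in WT, 7.00, 7.78 and 8.51 in Trem2KO, 4.06, 5.20 and 6.11 in Plcg2KO and 4.96, 5.97 and 7.64 in the libraries labelled Plcg2HET. Plcg2KO lay wholly below Trem2KO but overlapped WT, whose F3 library was low. The log2 fold change of Kdr was -0.77 ± 0.17 (SE) against WT (adjusted p = 0.00252) and -0.66 ± 0.17 against Trem2KO (adjusted p = 0.015).

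Flt1 had a lowest, median and highest CPM of 21.3, 26.4 and 46.1 in WT, 22.1, 25.5 and 29.0 in Trem2KO, 14.9, 17.9 and 24.4 in Plcg2KO and 15.4, 21.5 and 26.7 in the libraries labelled Plcg2HET. Of the Plcg2KO libraries, 5 of 6 were below every WT library and F1 was within the WT range. Its log2 fold change in Plcg2KO was -0.72 ± 0.16 (SE) against WT (adjusted p = 0.00383), and that against Trem2KO, -0.46 ± 0.16, did not pass (adjusted p = 0.0528).

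Cldn5, Cdh5 and Pecam1 encode proteins of endothelial contacts: claudin-5, the main claudin of the barrier's tight junctions, VE-cadherin of the adherens junctions, and the adhesion molecule PECAM1 (CD31). Cldn5 had a lowest, median and highest CPM of 20.2, 23.1 and 27.0 in WT, 15.3, 19.1 and 27.2 in Trem2KO, 9.13, 12.8 and 16.1 in Plcg2KO and 12.8, 28.8 and 31.5 in the libraries labelled Plcg2HET. All Plcg2KO libraries were below all WT libraries, and the Plcg2HET group was split, with M3 and F2 at 14.5 and 12.8 CPM and the other 4 at 27.5 to 31.5. The log2 fold change of Cldn5 was -0.86 ± 0.19 (SE) against WT (adjusted p = 0.00342), -0.64 ± 0.19 against Trem2KO (adjusted p = 0.0288) and -0.90 ± 0.19 against the Plcg2HET group (adjusted p = 0.00107).

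Pecam1 had a lowest, median and highest CPM of 12.3, 14.7 and 25.1 in WT, 14.6, 15.7 and 19.0 in Trem2KO, 11.1, 12.2 and 14.1 in Plcg2KO and 8.78, 13.1 and 18.1 in the libraries labelled Plcg2HET. Plcg2KO lay below Trem2KO without overlap and overlapped WT. Its log2 fold change was -0.46 ± 0.15 (SE) against WT, near the threshold (adjusted p = 0.046), and -0.45 ± 0.15 against Trem2KO (adjusted p = 0.0473). The call against WT was lost under several settings, among them offsets for GC content and gene length (adjusted p = 0.0552) and the fit without WT M1 (adjusted p = 0.187).

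Cdh5 had a lowest, median and highest CPM of 4.47, 8.28 and 15.5 in WT, 10.02, 11.3 and 15.1 in Trem2KO, 6.56, 7.93 and 12.6 in Plcg2KO and 6.08, 8.87 and 14.0 in the libraries labelled Plcg2HET. WT spanned the values of every Plcg2KO library, and Cdh5 was not called against it (log2 fold change -0.15 ± 0.22, SE, adjusted p = 0.714, 95% interval -0.61 to 0.31). Against Trem2KO the log2 fold change was -0.50 ± 0.22 (adjusted p = 0.111).

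Emcn, Sox17 and Abcb1a encode the endothelial sialomucin endomucin, a transcription factor of arterial endothelium, and the efflux pump P-glycoprotein of the barrier. Emcn had a lowest, median and highest CPM of 3.68, 4.09 and 5.32 in WT, 3.07, 3.78 and 4.71 in Trem2KO, 2.31, 2.71 and 4.11 in Plcg2KO and 2.68, 4.14 and 5.04 in the libraries labelled Plcg2HET. Of the Plcg2KO libraries, 5 of 6 were below every WT library. The log2 fold change against WT was -0.56 ± 0.16 (SE) and passed (adjusted p = 0.0225), and the call was lost without WT M1 (adjusted p = 0.0749). Against the Plcg2HET group the difference was -0.42 ± 0.17 (adjusted p = 0.0491).

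Sox17 had a lowest, median and highest CPM of 2.81, 3.32 and 4.40 in WT, 2.18, 3.59 and 4.50 in Trem2KO, 2.01, 2.53 and 3.30 in Plcg2KO and 1.83, 3.91 and 5.20 in the libraries labelled Plcg2HET. In Sox17, 4 of 6 Plcg2KO libraries were below every WT library, and the groups overlapped. The log2 fold change against WT was -0.39 ± 0.20 (SE, adjusted p = 0.214, 95% interval -0.80 to 0.02).

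Abcb1a had a lowest, median and highest CPM of 10.9, 14.6 and 25.5 in WT, 17.0, 19.0 and 21.3 in Trem2KO, 12.5, 15.6 and 18.9 in Plcg2KO and 12.7, 14.5 and 16.9 in the libraries labelled Plcg2HET. The groups overlapped, and the log2 fold change of Plcg2KO against WT was -0.08 ± 0.15 (SE, adjusted p = 0.775, 95% interval -0.40 to 0.23). Its close paralog Abcb1b, with which it may share or lose reads, was called lower in Plcg2KO, at 4.36 ± 1.01 CPM against 6.77 ± 0.921 in WT (mean ± SD, n = 6, log2 fold change -0.59, adjusted p = 0.0123).

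Tek, Tie1 and Cldn5 were the genes with every Plcg2KO library below every WT library, an order that 4.75% of all tested genes had. Tek, Tie1, Cldn5, Flt1 and Kdr stayed called lower with each single Plcg2KO or WT library left out in turn. Without WT M1 the count fell from 7 to 5, with Pecam1 and Emcn lost. The same 5 were left without Plcg2KO M4 or without Plcg2KO F2. Of all genes, 1105 of 16377 were lower without WT M1, 1145 of 16380 without Plcg2KO M4 and 982 of 16375 without Plcg2KO F2. Without WT M1, Cdh5 and Abcb1a also turned to log2 fold changes of 0.062 and 0.080. Of the 10 genes, 6 were highest in WT M1 among all 24 libraries.

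**Figure D2:**
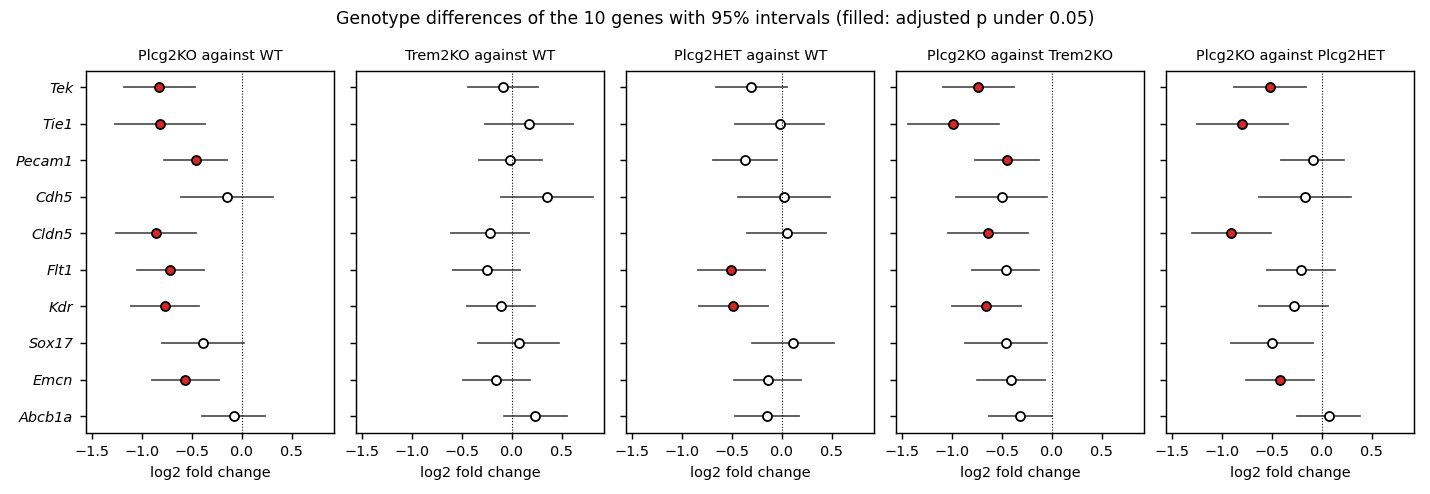
Log2 fold changes of the 10 genes (x axis) in the 5 comparisons, with 95% intervals from edgeR's quasi-likelihood fit and filled points for an adjusted p under 0.05. Against WT, 7 genes are filled for Plcg2KO, 0 for Trem2KO and 2 for the group labelled Plcg2HET.

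None of the 10 genes was called in Trem2KO against WT by edgeR, where 8.16% of all genes were called lower and 7.56% higher. None of them had an unadjusted p under 0.05, and DESeq2 also called 0. The log2 fold changes ran from -0.25 for Flt1 to 0.35 for Cdh5 (95% interval -0.10 to 0.81), with 6 of 10 below 0 and a median of -0.05. The interval for Tek was -0.44 to 0.26 and that for Cldn5 -0.61 to 0.18. Every gene overlapped between the groups, while 5.23% of all genes had each Trem2KO library below each WT library.

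The direct comparison of the knockouts gave lower levels in Plcg2KO than in Trem2KO for 5 of the 10 genes, Tek, Tie1, Pecam1, Cldn5 and Kdr, where 8.82% of all genes were called lower. All 10 log2 fold changes were negative, from -0.99 for Tie1 to -0.32 for Abcb1a, with a median of -0.48 against 0.0043 over all genes. Tie1, Pecam1 and Kdr had every Plcg2KO library below every Trem2KO library, an order found in 9.25% of all genes. With each Plcg2KO or Trem2KO library left out in turn the count lay between 3 and 6, and Tek, Tie1 and Kdr stayed called throughout. The count was 3 without Trem2KO M1, Trem2KO F3, Plcg2KO M1, Plcg2KO M2 or Plcg2KO F2. Calls over all genes also fell in these fits, from 1439 lower to 387 without Trem2KO M1 and 551 without Trem2KO F3. They fell to 969 without Plcg2KO M1, 1189 without Plcg2KO M2 and 729 without Plcg2KO F2. This comparison had the strongest GC trend of the 5 (Spearman coefficient across genes -0.644). With offsets for GC content and length the called genes were Tek, Tie1, Kdr and Emcn, where 485 of 16316 genes were called lower. Cldn5 was not called with these offsets (log2 fold change -0.33, adjusted p = 0.128).

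In the group labelled Plcg2HET, Flt1 and Kdr were called lower than in WT, 2 of 10 where 7.13% of all genes were called lower. The log2 fold changes were -0.50 ± 0.16 (SE) for Flt1 (adjusted p = 0.0338) and -0.48 ± 0.17 for Kdr (adjusted p = 0.0455), at 70.3% and 71.2% of the WT mean. Both overlapped the WT range, and 0 of the 10 genes had separate groups, where 1.64% of all genes lay wholly below WT. The 2 calls depended on single libraries, with 0 of the 10 called without WT M1, WT M3, Plcg2HET M3 or Plcg2HET F1. The count was 1 without WT M2, WT F2, Plcg2HET M1 or Plcg2HET F3, and 0 with the 3 Rn45s-rich libraries left out. Of all genes, 789 to 1857 were called lower in these single-library fits, and 326 of 16493 without the Rn45s-rich libraries. Cldn5, Tie1, Cdh5 and Sox17 had log2 fold changes between -0.02 and 0.11, with 95% intervals from -0.47 to 0.52 across the 4.

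Against the group labelled Plcg2HET, 4 of the 10 genes were lower in Plcg2KO, namely Tek, Tie1, Cldn5 and Emcn, where 20.2% of all genes were called lower. The median log2 fold change of the 10 was -0.35, and 0 genes had separate groups, where 4.44% of all genes lay wholly below. Flt1 and Kdr, the genes called lower in the Plcg2HET group against WT, had log2 fold changes of -0.21 and -0.28 here (adjusted p = 0.326 and 0.196). Leaving out the 3 Rn45s-rich libraries gave 1 called gene (Cldn5), where 1787 of 16493 genes were called lower. Of the 10 genes, 2 were called without Plcg2KO M1, Plcg2HET M1, Plcg2HET M2 or Plcg2HET F3, where 2577 to 3006 of all genes were called lower. The comparisons with WT share the WT libraries, and those with Plcg2KO share its libraries.

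The ratios of Abcb1a, Pecam1 and Tie1 to Cldn5 each differed between genotypes in at least 1 comparison, while with Pecam1 as the reference 0 of 45 tests passed (lowest adjusted p 0.0904, exact permutation tests). Log2(CPM + 0.5) of each gene was set against that of Cldn5 within the same library, and 9 genes in 5 comparisons gave 45 comparisons of 6 with 6 libraries, each by an exact permutation test (two-sided). The smallest p such a test allows is 0.00216. These tests took no account of sex, and Plcg2KO had 4 males and 2 females. In Plcg2KO against WT, Abcb1a and Cldn5 had log2 fold changes of -0.08 and -0.86. The ratio of Abcb1a to Cldn5 was higher in Plcg2KO by 0.83, at 0.25 ± 0.32 against -0.58 ± 0.34 in WT (log2, mean ± SD, n = 6, exact permutation p = 0.00216, adjusted over the 45 tests 0.0325). Against the Plcg2HET group the same ratio was higher by 0.90 (exact p = 0.00433, adjusted 0.0487). Pecam1 relative to Cldn5 was higher in Plcg2KO than in the Plcg2HET group by 0.77, and Tie1 relative to Cldn5 was higher in Trem2KO than in WT by 0.37 (exact permutation p = 0.00216, adjusted 0.0325 for each). The other 41 tests did not pass. Without the 3 Rn45s-rich libraries the Plcg2HET group keeps 4 libraries, and both ratios against it no longer passed. They were 0.75 for Abcb1a and 0.61 for Pecam1 (exact permutation p = 0.00952, adjusted 0.0714 for each). Cldn5 has the highest GC content of the 10 genes (60.5%), Tie1 has 57.6%, Pecam1 50.2% and Abcb1a 45.2%, and the part of GC content in these ratios was not tested.

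For 9 of the 10 genes the WT males had a higher mean than the WT females, and for Sox17 they had a lower one, at 3.33 against 3.44 CPM. Flt1 stood at 37.4 CPM on average in the 3 males and 23.6 in the 3 females, Abcb1a at 21.2 and 11.6, Tek at 11.0 and 7.43, and Cdh5 at 11.7 and 6.70. In Plcg2KO the means of Tek were 5.19 in 4 males and 5.33 in 2 females. Whether the genotype effects differed between the sexes was tested as an interaction, and edgeR called 0 of the 10 genes in each of the 5 comparisons, where 0% of all genes were called. The lowest adjusted p was 0.634, for Abcb1a and Kdr in Plcg2KO against WT. At an unadjusted p under 0.05 stood 5 of 10 genes for Plcg2KO against WT (7.79% of all genes), 6 for Trem2KO against WT (2.91%) and 3 for the Plcg2HET group against WT (5.44%), comparisons that share the WT mice, and 0 for the other 2.

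Fitted in males alone, 4 genes were called lower in Plcg2KO than in WT (Tek, Pecam1, Flt1 and Kdr), where 309 of 16375 genes were. The median log2 fold change of the 10 was -0.82 in males. In females alone 0 of the 10 were called, where 491 of 16565 genes were called lower. There 8 of 10 were negative, with a median of -0.22 and a lowest edgeR adjusted p of 0.114 (Abcb1a, at 0.49). The female fit holds 2 Plcg2KO mice. Tie1 and Cldn5 had log2 fold changes of -0.88 and -0.97 in males and -0.81 and -0.73 in females, and Abcb1a had -0.48 and 0.49, values of opposite sign.

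After genotype and sex means were subtracted, the 10 genes moved together across the 24 libraries. All 45 pairs had a positive Pearson coefficient, from 0.224 for Kdr with Sox17 to 0.918 for Flt1 with Abcb1a, with a median of 0.645. Flt1 followed the mean of the other 9 most closely (0.929), and Sox17, the least abundant member per length, least closely (0.582). These coefficients are descriptions over 24 libraries that share depth and GC trends. The mean of the standardised residuals was highest in WT M1 and lowest in the library Plcg2HET M3.

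**Figure D3:**
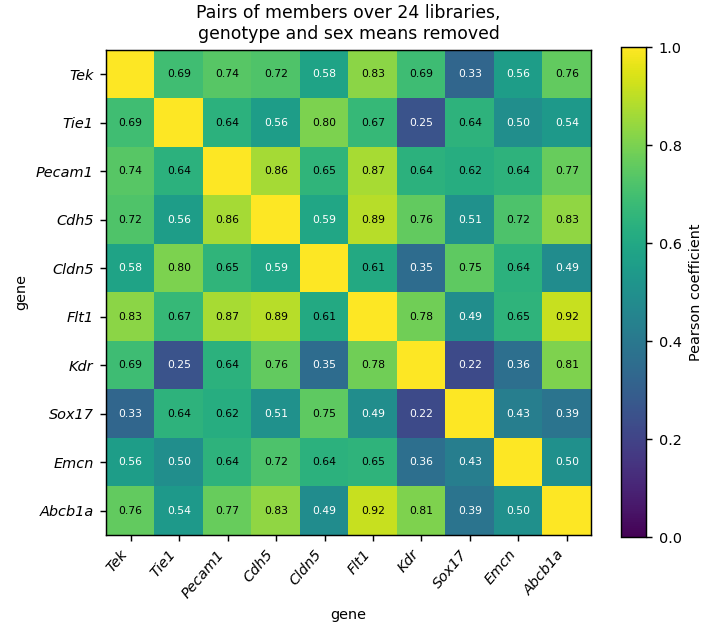
Pearson coefficients between the 10 genes (both axes) over the 24 libraries, after genotype and sex means were subtracted from log2(CPM + 0.5), with the colour scale from 0 to 1. The lowest off-diagonal coefficient is 0.224 (Kdr with Sox17) and the highest 0.918 (Flt1 with Abcb1a).

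Another 12959 genes reached a mean log2 CPM of 1 or more. Among the 8 whose residuals followed the mean of the 10 most closely over the 24 libraries were Adgrf5 (Pearson coefficient 0.915), Eng (0.874), Abcc4 (0.868), Fn1 (0.867), Lsr (0.864), Flt4 (0.861) and Adgrl4 (0.858). Of the 50 closest genes, 13 were in the lists of other endothelial genes, which held 96 of the 12959. Eng encodes endoglin, a TGF-beta co-receptor of endothelium, and Flt4 encodes VEGFR3.

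Most other endothelial genes were not called. Of 110 further genes on 8 endothelial lists, 19 were lower in Plcg2KO than in WT (17.3%, where 7.63% of all genes were) and 5 higher (4.55%, where 5.44% were), with a median log2 fold change of -0.12. Against Trem2KO, 20 were lower and 4 higher in Plcg2KO, where 8.82% and 7.63% of all genes were. In Trem2KO against WT 8 were lower and 7 higher, where 8.16% and 7.56% of all genes were. In the Plcg2HET group 16 were lower and 11 higher than in WT (all genes 7.13% and 10.9%), and in Plcg2KO 29 were lower and 8 higher than in that group (all genes 20.2% and 15%). From each list the 3 genes with the smallest p over the 4 genotypes are described for Plcg2KO against WT.

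Of 12 partners of the angiopoietin and VEGF receptors, 2 were lower and 1 higher, where 7.63% of all genes were lower and 5.44% higher. The co-receptor Nrp1 was lower (-0.33, adjusted p = 0.0343), while the ligand Vegfa (-0.25, adjusted p = 0.144) and the TIE1 ligand Svep1 (0.61, adjusted p = 0.0592) did not pass. Vegfa was lower in Trem2KO (-0.49, adjusted p = 0.00377) and in the Plcg2HET group (-0.78, adjusted p = 0.000139) than in WT. Nrp1 was also lower in Trem2KO than in WT (-0.61, adjusted p = 0.000206). Of 12 junction genes, 1 was lower and 1 higher, close to those shares of all genes. F11r, which encodes the junctional adhesion molecule A, changed by -0.80 (edgeR adjusted p = 3.02e-05) and Jam2 by 0.39 (adjusted p = 0.00368). Lsr of tricellular junctions did not pass (-0.32, adjusted p = 0.395). F11r was also lower in Trem2KO (-0.90, adjusted p = 9.34e-06), and it is expressed by microglia and other cells too.

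Of 14 transporters of the barrier, 3 were lower and 1 higher in Plcg2KO, where 7.63% of all genes were lower and 5.44% higher. The organic anion transporter Slco1a4 stood at 22.0 ± 2.94 CPM in Plcg2KO and 33.0 ± 4.71 in WT (mean ± SD, n = 6, log2 fold change -0.60, adjusted p = 0.00253). Mfsd2a, which carries lysophospholipids into the brain, went the other way, at 14.4 ± 3.70 CPM against 10.01 ± 1.54 (0.52, adjusted p = 0.0119), and Slc7a5, a large amino acid transporter subunit, did not pass (0.16, adjusted p = 0.431). Mfsd2a was also higher in the Plcg2HET group than in WT (0.79, adjusted p = 0.000566). Of 18 transcription factors, 3 were lower and 1 higher in Plcg2KO than in WT, against the same shares of all genes. Elk3 (-0.82, adjusted p = 2.61e-06) and Tal1 (-0.87, adjusted p = 0.000258) were lower, and Klf2, a factor induced by blood flow, did not pass (0.46, adjusted p = 0.22). Elk3 was also lower in Trem2KO (-0.75, adjusted p = 1.26e-05).

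Of 24 further pan-endothelial genes, 6 were lower and 0 higher in Plcg2KO, where 7.63% of all genes were lower and 5.44% higher. The sialomucin Cd34 was lower (-0.51, adjusted p = 4.11e-05), as it was in Trem2KO (-0.44, adjusted p = 0.000339), and so was the C-type lectin Clec14a (-0.63, adjusted p = 0.0063), while the sphingosine-1-phosphate receptor gene S1pr1 did not pass (0.19, adjusted p = 0.075). In the Plcg2HET group Cd34 (-0.27, adjusted p = 0.0167) and Clec14a (-0.72, adjusted p = 0.00248) were also lower than in WT. Of 12 arterial and venous genes, 2 were lower: the Notch ligand Dll4, at 0.819 ± 0.275 CPM against 1.58 ± 0.394 in WT (mean ± SD, n = 6, -0.97, adjusted p = 0.00232), and Ctsc (-0.89, adjusted p = 9.12e-07), a lysosomal protease that microglia also express. Dll4 was lower than in Trem2KO as well (-1.18, adjusted p = 0.00227). Ctsc was also lower in Trem2KO than in WT (-0.69, adjusted p = 5.2e-05). Unc5b did not pass (-0.09, adjusted p = 0.628).

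Of 12 genes of Notch and Wnt signalling, 2 were lower and 1 higher in Plcg2KO, where 7.63% of all genes were lower and 5.44% higher. The Notch target Heyl (-0.55, adjusted p = 0.0441) and the Wnt target Apcdd1 (-0.51, adjusted p = 0.00187) were lower, and Fzd4, the receptor of the norrin pathway, was higher at 7.29 ± 1.28 CPM against 4.86 ± 0.727 (mean ± SD, n = 6, 0.58, adjusted p = 0.00167). Fzd4 was also higher in Trem2KO than in WT (0.49, adjusted p = 0.00554). Apcdd1 was also lower in the Plcg2HET group than in WT (-0.41, adjusted p = 0.00936). Heyl is also expressed by pericytes. Of 6 tested endothelial activation genes, edgeR called 0 against WT, DESeq2 called 1 higher and 2 had an unadjusted p under 0.05, with Plvap at 0.15 (adjusted p = 0.347), Esm1 at 1.42 (adjusted p = 0.0634) and Apln at 0.20 (adjusted p = 0.258).

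Markers of other cells moved in part with the groups. Of 11 pericyte markers, 0 were called in Plcg2KO against WT by edgeR or by DESeq2, 5 had an unadjusted p under 0.05, and the median log2 fold change was -0.23. Against Trem2KO, 4 of the 11 were lower in Plcg2KO, where 8.82% of all genes were. All 11 log2 fold changes were negative there, with a median of -0.24. Against the Plcg2HET group 4 of the 11 were lower, where 20.2% of all genes were. The summed level of the pericyte markers was 168 to 190 CPM in Plcg2KO, 166 to 231 in WT and 215 to 277 in Trem2KO. In the libraries labelled Plcg2HET it was 155 in M3 and 152 in F2 against 281 to 343 in the other 4. The summed level of the 10 endothelial genes split the same way, at 80.3 and 79.5 CPM in M3 and F2 against 114 to 138. It was 73.1 to 105 CPM in Plcg2KO, 106 to 150 in Trem2KO and 93.7 to 183 in WT. The summed level of the neuron markers split the other way, at 8305 CPM in Plcg2HET M3 and 7786 in Plcg2HET F2 against 5905 to 7111. For neurons the sums were 7517 to 8914 CPM in Plcg2KO, 6251 to 7533 in Trem2KO and 6058 to 7772 in WT. The part of these shifts in the endothelial values was not tested.

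**Figure D4:**
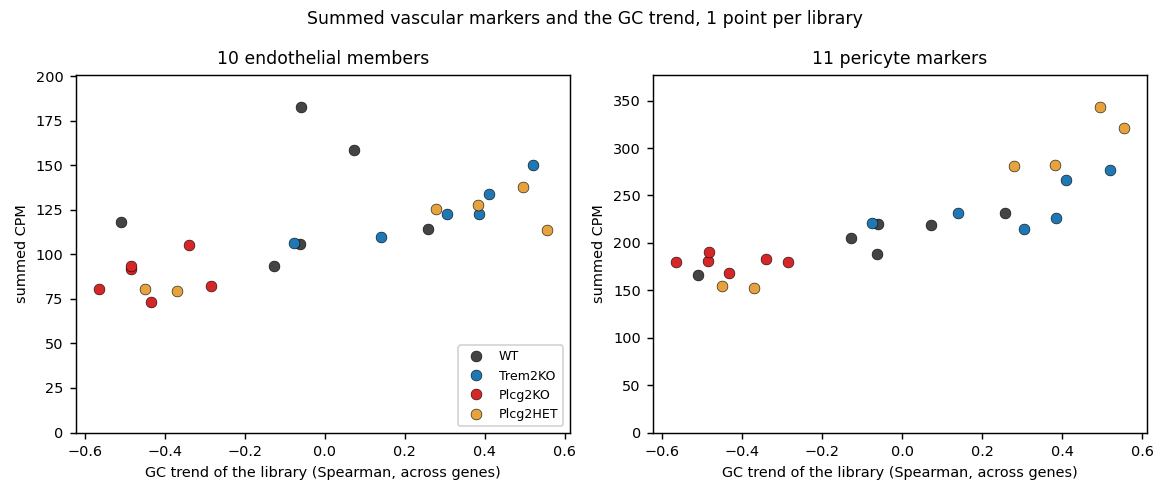
Summed CPM of the 10 endothelial genes (left, y axis) and of 11 pericyte markers (right, y axis) against the GC trend of each library (x axis, Spearman coefficient across genes), 1 point per library and coloured by labelled genotype. The 6 Plcg2KO libraries and Plcg2HET M3 and F2 lie at a GC trend of -0.285 or lower with member sums of 73.1 to 105 CPM, and WT M2 lies there too, at 118 CPM.

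The GC trend and the summed level moved together in part of the libraries. At a GC trend of -0.511 the library WT M2 had a summed level of 118 CPM, and at -0.451 and -0.371 the libraries Plcg2HET M3 and F2 had 80.3 and 79.5 CPM, within the Plcg2KO range. With offsets that remove each library's trend with GC content and length, 6 of the 10 genes were called lower in Plcg2KO than in WT, with a median log2 fold change of -0.62. Of all 16316 genes, 1448 were called lower with these offsets. Cldn5 changed there by -0.63 (adjusted p = 0.00127) and Tie1 by -0.69 (adjusted p = 0.00977).

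Microglial markers were lower in both knockouts, 11 of 12 in Plcg2KO and 10 of 12 in Trem2KO, with summed levels of 575 to 926 and 700 to 987 CPM against 1042 to 1739 in WT and 1068 to 1846 in the libraries labelled Plcg2HET. Of all genes, 7.63% were called lower in Plcg2KO and 8.16% in Trem2KO. In the Plcg2HET group against WT, 1 of the 12 microglial markers was lower and 1 higher, where 7.13% and 10.9% of all genes were. The part of the microglial markers in the endothelial values was not tested. Smooth muscle markers (0 of 6 called in Plcg2KO against WT by edgeR or DESeq2, 1 at an unadjusted p under 0.05) summed to 37.1 to 56.8 CPM in Plcg2KO and 40.2 to 57.5 in WT. Meningeal fibroblast markers were higher than in WT in all 3 other groups, 6 of 8 in each knockout and 5 of 8 in the Plcg2HET group. Of all genes, 5.44% were higher in Plcg2KO, 7.56% in Trem2KO and 10.9% in the Plcg2HET group. These markers summed to 164 to 184 CPM in Plcg2KO, 178 to 197 in Trem2KO, 143 to 190 in the Plcg2HET group and 116 to 143 in WT. Their part in the endothelial values was not tested. Astrocyte markers summed to 4547 to 5432 CPM in Plcg2KO and 4425 to 5051 in WT, and oligodendrocyte markers to 3403 to 4286 and 4132 to 4762. Choroid plexus markers summed to 5.05 to 11.8 and 3.78 to 5.77 CPM, and platelet markers to 1.67 to 2.43 and 2.28 to 2.81. Of the erythrocyte markers, the haemoglobin genes Hba-a1, Hba-a2, Hbb-bs and Hbb-bt were listed at 0 in 24 of 24 libraries, and Alas2 in 3. Why the haemoglobin genes had no counts was not tested, so their zeros do not show that blood RNA was absent.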

How the data were processed

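RNA from whole cortex was sequenced for 24 mice, with KAPA mRNA HyperPrep libraries from total RNA per the labels' protocols. The authors deposited whole-number read counts per gene with exon coordinates. STAR 2.7.10a, featureCounts 2.0.3 and mm10 are named in the submitters' processing notes. The annotation and strand setting were not given in the sources used here. A further table deposited by the authors held expected counts, rounded here for an alternative fit. Its 72 per-sample columns of TPM, FPKM and effective length were not used.

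Genes were kept by filterByExpr with a minimum count of 10 (16316 genes). Counts were scaled by TMM and fitted with edgeR 4.0.16 (R 4.3.3) to all 24 libraries, with a mean for each genotype plus a sex term, and tested with the robust quasi-likelihood F-test, adjusted by Benjamini-Hochberg. Sex interactions used 1 mean per genotype and sex. Each mouse is 1 replicate. The fit was tested on simulated data.

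The 10 genes and the lists were chosen with earlier results of these data known. Named genes are the 10 members, the 3 genes of each further list with the smallest p over the 4 genotypes, and the 8 genes most like the members, 1 of which is not reported here. Abcb1b was named after its values were seen, as a paralog. Alternatives were RLE size factors, no count filter, no sex term, a replicate block, only the 2 groups compared, each sex alone, the expected counts, offsets for GC content and length (GC content known for 96.2% of tested genes), leaving out the 3 libraries rich in Rn45s, each single library left out, DESeq2 1.42.0 and, for ratios, other pseudocounts, Pecam1 as the reference and the same 3 libraries left out. A single library was left out only for comparisons that involved its genotype.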

Additional observations from a re-analysis of the deposited data

Results flagged for a closer look

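Cdh5 had 1 library set above the rest in a pair of genotypes. In Trem2KO, F3 stood at 15.1 CPM and the next library at 11.9, and in Plcg2KO, F1 stood at 12.6 CPM and the next at 8.26. In both cases the gap to the nearest library, relative to the range, exceeded Dixon's limit for 6 values. These were 2 of 40 gene and genotype groups tested, and chance marks about 1 group in 20.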

How the results depend on the processing

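Counts of members called lower in Plcg2KO against WT (7) were 5 to 7 with each library of the 2 groups left out. They were 4 in males alone, where 309 of 16375 genes were lower, and 0 in females alone, where 491 of 16565 were. The count in the group labelled Plcg2HET against WT (2) was 1 with RLE size factors and 0 to 3 with each library left out. It was 0 with the replicate block and in either sex alone. It was also 0 without the 3 libraries rich in Rn45s and with only the 2 groups fitted. Of all genes, 1073 of 16316 were lower with RLE size factors and 981 with the replicate block. In males alone 3 of 16375 were, and in females alone 132 of 16565. Without the Rn45s-rich libraries 326 of 16493 were lower, and with only the 2 groups 223 of 15739. For Plcg2KO against Trem2KO (5) the count was 3 with the replicate block and 9 with only the 2 groups fitted. It was 0 in either sex alone and 3 to 6 with each library left out. Of all genes, 530 of 16316 were lower with the replicate block and 3203 of 15936 with only the 2 groups. In males alone 6 of 16375 were, and in females alone 2 of 16565. For Plcg2KO against the Plcg2HET group (4) the count was 2 with the replicate block, 1 in males alone and 0 in females alone. It was 1 without the libraries rich in Rn45s and 2 to 5 with each library left out. Of all genes, 2616 of 16316 were lower with the replicate block and 1787 of 16493 without the Rn45s-rich libraries. In males alone 1082 of 16375 were, and in females alone 981 of 16565. With each library left out, genes called lower numbered 921 to 1250 in Plcg2KO against WT and 789 to 1857 in the Plcg2HET group against WT. They numbered 387 to 1520 in Plcg2KO against Trem2KO and 2577 to 3993 in Plcg2KO against the Plcg2HET group. In Trem2KO against WT, 2 members were higher in females alone (Cdh5 and Abcb1a), where 507 of 16565 genes were higher. Over the 4 genotypes (7) the counts were 3 in males and 2 in females, an alternative added after the data were seen. The 4 ratios to Cldn5 became 8 with a pseudocount of 2 and 0 relative to Pecam1. Causes were not tested. Same-code correlations of deviations ran from -0.379 to 0.565. They were not compared with those of different codes, so they cannot show whether the replicate codes pair the mice. With the code as a block Plcg2KO against WT held 5 calls, where 969 of 16316 genes were lower. Of the single-gene values under the alternatives, 966 kept their direction and side of the threshold, 108 lost a call, 18 gained one and 58 changed sign, none of them called under either setting. In females alone the sign changed for Cdh5 (0.55) and Abcb1a (0.49) in Plcg2KO against WT, for Tek (0.29), Pecam1 (0.38), Cldn5 (0.041), Flt1 (0.20) and Kdr (0.34) in Trem2KO against WT, for Tie1 (0.14), Sox17 (-0.061) and Abcb1a (0.32) in the Plcg2HET group against WT, and for Pecam1 (0.20) and Cdh5 (0.24) in Plcg2KO against the Plcg2HET group. In males alone the sign changed for Tie1 (-0.19), Cdh5 (-0.13), Sox17 (-0.13) and Abcb1a (-0.23) in Trem2KO against WT, and for Cdh5 (-0.17) and Cldn5 (-0.037) in the Plcg2HET group against WT. With only the 2 groups fitted the sign changed for Pecam1 (0.0011) in Trem2KO against WT, and for Tie1 (0.0057) in the Plcg2HET group against WT. With GC and length offsets the sign changed for Sox17 (-0.0085) and Emcn (0.077) in Trem2KO against WT, for Cdh5 (-0.028), Cldn5 (-0.12) and Emcn (0.10) in the Plcg2HET group against WT, and for Abcb1a (-0.14) in Plcg2KO against the Plcg2HET group. With expected counts the sign changed for Cdh5 (-0.019) in the Plcg2HET group against WT. Without the Rn45s-rich libraries the sign changed for Cdh5 (-0.036) and Cldn5 (-0.17) in the Plcg2HET group against WT. With each library left out, log2 fold changes on both sides of 0 were found for Cdh5 (-0.36 to 0.062) and Abcb1a (-0.19 to 0.080) in Plcg2KO against WT, and for Tek (-0.17 to 0.065), Pecam1 (-0.088 to 0.13), Kdr (-0.24 to 0.0079) and Sox17 (-0.014 to 0.19) in Trem2KO against WT, and for Tie1 (-0.18 to 0.12), Cdh5 (-0.13 to 0.22), Cldn5 (-0.054 to 0.18), Sox17 (-0.030 to 0.26) and Abcb1a (-0.24 to 0.00096) in the Plcg2HET group against WT, and for Pecam1 (-0.18 to 0.020) and Abcb1a (-0.050 to 0.13) in Plcg2KO against the Plcg2HET group. The lowest counts, 96 for Sox17 and 100 for Emcn, limit their precision.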
